A study of Mus musculus with 16 samples.

Results

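Rod photoreceptors of mice aged 18 months were compared with those of mice aged 12 months, the interval between middle age and the start of old age. The comparison holds 8 of the 16 libraries of the series, 4 at each age, chosen by the age in the labels alone. The series profiled RNA of sorted rods at 3, 12, 18 and 24 months, with 4 libraries at each age. All 16 libraries carry the strain label C57BL/6J (Nrlp-GFP). In these mice green fluorescent protein is driven by the Nrl promoter; Nrl is the transcription factor that commits photoreceptor precursors to the rod fate. The sorted cells are therefore those in which that promoter is active. The protocol also names Nrlp-GFP;Nrl-KO mice, but no library is labelled as coming from them. No group received a treatment, and every group shares the reporter, the papain dissociation of the retina and the sort. The design text calls the 4 libraries of an age biological replicates, but the labels do not say if a library stands for 1 mouse or several, so the p-values below measure the spread between libraries.

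Rods are the dim-light photoreceptors of the retina and by far its most numerous neurons in the mouse. They do not divide, they renew their outer segments throughout life, and they have a high demand for energy. In the ageing retina rods are known to be lost slowly.

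The 8 libraries held between 20579144 and 26732910 estimated counts, and 12177 genes passed the filter of at least 5 CPM (counts scaled to the library total) in at least 4 of the 16 libraries. Of these, 10286 were protein-coding. All 12 rod marker genes passed the filter, and their summed level was 23199 to 26439 CPM at 12 months and 21895 to 24162 at 18 months. All 24 Muller glia markers were above 0, with sums of 330 to 734 CPM at 12 months and 373 to 522 at 18 months. Markers of the other cell types were also present at low level, and no marker on the 12 lists was at 0 in all 8 libraries. In bulk samples, a smaller share of cells of a type and less RNA per cell cannot be told apart. Library 4 at 12 months stood apart: on the first principal component of the 8 libraries, which held 63.9% of the variance, it lay at 49.97 and the other 7 between -26.5 and 9.76. The same library was high for Muller glia markers (734 CPM against at most 415 in the other 3 at 12 months) and for endothelial and pericyte markers (609 CPM against at most 405). It was also the highest of its age for rod markers (26439 CPM against at most 23429). The same held for cone, bipolar, amacrine, horizontal, ganglion and pigment epithelium markers. For astrocyte, microglia and macrophage, and red blood cell markers it was the lowest (385, 36.5 and 11.8 CPM). Library 3 at 18 months lay at -26.5 on that component, beyond libraries 1 to 3 of 12 months (-19.6 to -11.1) and away from the other 3 of 18 months (4.95 to 9.76). Neither these 2 libraries nor library 3 of 24 months is in the authors' normalized table, and results that rest on them are given below with and without them.

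In the fit over all 16 libraries the change between 12 and 18 months was small in nearly every gene. The median size of the log2 fold change was 0.0609, the 95th percentile of sizes was 0.263, and the median standard error (SE) of a fold change was 0.137. The SE was derived as the size of the log2 fold change over the square root of the test's F score. A single gene rose and none fell by edgeR's quasi-likelihood test at an adjusted p under 0.05 (Benjamini-Hochberg over all tested genes), which is 0.00821% and 0% of the genes tested. At an unadjusted p under 0.05 there were 185 higher genes (1.52%) and 86 lower genes (0.706%). The alternative tool DESeq2, on the same genes, called 8 higher and 4 lower. The count also depended on the libraries. Without the 3 that are not in the authors' normalized table, edgeR called 171 higher and 52 lower. With only the 8 libraries of 12 and 18 months it called 0 in either direction. The tool voom with sample quality weights, over all 16 libraries, called 1513 and 827. In the edgeR fit over all 16 libraries, 119 genes were called higher and 50 lower at 12 than at 3 months. That fit called 323 higher and 195 lower at 24 than at 3 months, whereas none was called between 18 and 24 months. The median SE was 0.137 in each of these comparisons, so by this derived measure the typical precision was alike. Differences of at least 1.5-fold were seen in 49 genes that were higher at 18 months and 19 that were lower, and of at least 2-fold in 9 and 1.

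Of those 10 genes with a difference of at least 2-fold, 5 were higher in every library at 18 months than in any at 12 months, among them Gm28876, Gm28265, Zfp781 and Gm28046. The other 5 (Pim2, Gm23766, Gm14440, Gm24253 and Gm3055) varied widely within an age. Pim2, a serine/threonine kinase gene, was at 15.9, 12.3, 1.42 and 11.4 CPM at 18 months and at 1.01, 1.26, 8.05 and 1.04 CPM at 12 months. In Pim2, library 3 went against the other 3 at both ages. The microRNA gene Gm23766 reached 779 CPM in library 3 at 18 months and was between 17.2 and 68.5 CPM in the other 7.

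The gene that rose was Gm28876, a long intergenic noncoding RNA (chr15:103096151-103102111, minus strand, GRCm38). It was at 1.53, 1.39, 1.66 and 2.54 CPM at 12 months and at 7.87, 5.50, 9.17 and 6.56 CPM at 18 months. The 4 libraries at 18 months were all above those at 12 months. The log2 fold change was 2.04 (SE 0.23), with an edgeR adjusted p of 0.0019. Gm28876 met the filter of 5 CPM only through the libraries of 18 and 24 months, where it is high. It was also called by edgeR with a minimum of 1 CPM and with no filter on low counts. The mean at 3 months was 0.0193 CPM (SD 0.0224, n = 4) and at 24 months 12.1 CPM (SD 1.90, n = 4). In the authors' deposited table, which gives differences from 3 months, Gm28876 stood at a log2 difference of 5.52 at 12 months and 7.62 at 18 months. When only the 8 libraries of 12 and 18 months entered the fit, its adjusted p by edgeR was 0.12 at the same fold change.

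A second noncoding gene, Gm28265, ends 172 bases upstream of Gm28876 on the same strand (chr15:103102284-103104602). It was at 9.89, 11, 6.32 and 6.22 CPM at 12 months and at 19.1, 14.3, 104.0 and 30.2 CPM at 18 months. All 4 libraries at 18 months were above the 4 at 12 months, but library 3 stood far above the rest, and the log2 fold change of 2.32 (SE 0.50) had an edgeR adjusted p of 0.48. Without that library the log2 fold change was 1.34. Gm28265 lies opposite Gm10830, and no source used here says if the counting used strand, so reads of the pair cannot be told apart. The other tested genes within 100000 bases of Gm28876 were Hoxc4, a homeobox gene (log2 fold change 0.15, SE 0.11), Smug1, a uracil-DNA glycosylase of base excision repair (0.27, SE 0.09), and Cbx5, which encodes heterochromatin protein HP1 alpha (0.08, SE 0.09). None of these 3 passed the test. Smug1 was at 53.8 to 63.6 CPM at 12 months and 61.9 to 72.3 CPM at 18 months, and only library 4 at 12 months overlapped the older group. One of the 2 RefSeq start windows of Gm28876 holds the annotated start of Gm28265. It is printed here because it joins both noncoding genes (RefSeq, GRCm38.p6, chr15:103104349-103104648, minus strand), with a match to the letters TGCTGA, the core of the element bound by Nrl and other Maf factors, in capitals (on the reverse strand, so that it reads TCAGCA).
Gm28876: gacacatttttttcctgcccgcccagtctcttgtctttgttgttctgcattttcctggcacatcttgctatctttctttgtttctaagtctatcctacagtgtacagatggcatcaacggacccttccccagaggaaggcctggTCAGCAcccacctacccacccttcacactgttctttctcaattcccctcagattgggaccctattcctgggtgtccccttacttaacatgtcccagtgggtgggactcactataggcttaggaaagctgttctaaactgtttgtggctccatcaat

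Genes that did not pass the test can still be described by whether the ages overlap. In 109 genes (0.895% of those tested) all 4 libraries at 18 months were above the 4 at 12 months, and in 85 (0.698%) all 4 were below. Libraries exchangeable between the ages would give larger shares, so a lack of overlap alone does not mark a gene as changed. These 194 genes (1.59%) were ranked by unadjusted p, and most of the first 12 protein-coding genes among them in each direction are named next. None of the 24 passed the adjusted threshold in edgeR, and their values are given as a description. The genes that DESeq2 called included Gm28876, Gm28265, the small nucleolar RNAs Gm26109 and Gm22980, and protein-coding genes among these 24, including Serinc5, Tbc1d9, Gulp1, Sestd1, Zbtb8a and Scd1.

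Among the lower genes, Serinc5 had the smallest p. It encodes a multipass membrane protein that limits the infectivity of retroviruses. Serinc5 was at 5.21, 5.04, 5.36 and 6.32 CPM at 12 months and at 3.60, 3.56, 2.96 and 3.04 CPM at 18 months. The log2 fold change was -0.73 (SE 0.12, edgeR adjusted p 0.074).

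Tbc1d9, a member of the TBC-domain family that acts on Rab GTPases, was at 7.75, 8.06, 7.68 and 9.90 CPM at 12 months and at 5.00, 4.65, 4.54 and 3.90 CPM at 18 months. Every library at 18 months was below every library at 12 months, and the log2 fold change was -0.88 (SE 0.14, edgeR adjusted p 0.074). Gulp1, an adaptor for the engulfment of dying cells, was at 14, 15.5, 13.0 and 13.2 CPM and then at 8.03, 8.56, 9.54 and 8.74 CPM, and the log2 fold change stood at -0.67 (SE 0.14, edgeR adjusted p 0.39). Sestd1, a spectrin-repeat protein with a lipid-binding domain, was at 6.58, 6.05, 6.24 and 5.92 CPM and then at 3.84, 3.42, 4.54 and 3.28 CPM, and the log2 fold change stood at -0.71 (SE 0.17, edgeR adjusted p 0.58). In these genes both ages were tight, and library 4 at 12 months did not set the difference: it was the highest of its age in Serinc5 and Tbc1d9 but the lowest in Sestd1.

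The other 8 lower protein-coding genes were Mvb12b, a subunit of the ESCRT-I complex (log2 fold change -0.52), Ralb, a small Ras-like GTPase (-0.43), Xrra1 (-0.56), Lactbl1 (-0.53), Wwtr1, which encodes the Hippo pathway coactivator TAZ (-0.37), Kirrel, a cell adhesion protein of the immunoglobulin family (-0.27), Prob1 (-0.38) and Mylk, the myosin light chain kinase (-0.40). Their edgeR adjusted p was between 0.58 and 1. In Wwtr1, Kirrel and Mylk, library 4 at 12 months was far above its group: Mylk was at 67.7 CPM there and at 44.7 to 48.3 CPM in the other 3, against 37.5 to 40.5 CPM at 18 months. Without that library the log2 fold change of Mylk was -0.24, against -0.40 with it. Ralb was at means of 10.8, 11.7, 8.71 and 12.7 CPM at 3, 12, 18 and 24 months, so that 18 months was its low point. Tbc1d9, Gulp1, Mvb12b, Ralb, Xrra1, Wwtr1, Kirrel and Mylk each lie opposite another annotated gene over part of their span, introns included. Any shared exons would carry the same uncertainty about strand, but whether exons overlap was not tested.

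Among the higher genes, Zbtb8a had the smallest p. It encodes a zinc finger protein of the BTB family. Zbtb8a was at 27.5, 24.1, 27.8 and 23.5 CPM at 12 months and at 39.3, 34.7, 32.7 and 41.9 CPM at 18 months, and the log2 fold change stood at 0.53 (SE 0.09, edgeR adjusted p 0.12). Its end overlaps Zbtb8os on the other strand by 920 bases.

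Scd1, the stearoyl-CoA desaturase that makes oleate, was at 4.32, 3.78, 3.14 and 3.68 CPM and then at 6.07, 6.68, 4.75 and 6.41 CPM, and the log2 fold change stood at 0.68 (SE 0.15, edgeR adjusted p 0.48). In Scd1 the lowest library at each age was number 3.

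Six4, a homeobox gene on chromosome 12, was at 7.81 to 10.7 CPM at 12 months and at 11.3 to 12.8 CPM at 18 months (log2 fold change 0.33, SE 0.10, edgeR adjusted p 1), without overlap.

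A further 7 were Rnf43, which encodes a ligase that clears Wnt receptors from the membrane (log2 fold change 0.60), Prok1, a secreted prokineticin (0.48), Tap2, a subunit of the peptide transporter for class I antigen presentation (0.47), Racgap1, a GTPase activator that acts in cytokinesis (0.35), Col26a1, a collagen (0.36), Tmem116 (0.32) and Gm10181 (0.50). Their edgeR adjusted p was between 0.58 and 1. Gm10181 was at 15.4 to 18.5 CPM at 12 months and at 18.9, 19.7, 30.0 and 29.2 CPM at 18 months, so its difference came mainly from libraries 3 and 4 of 18 months. Col26a1 was at a mean of 8.26 CPM at 3 months, 6.65 CPM at 12 months and 8.55 CPM at 18 months, so 12 months was its low point over these ages. Rnf43, Prok1, Tap2 and Tmem116 overlap genes on the other strand.

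**Figure D1:**
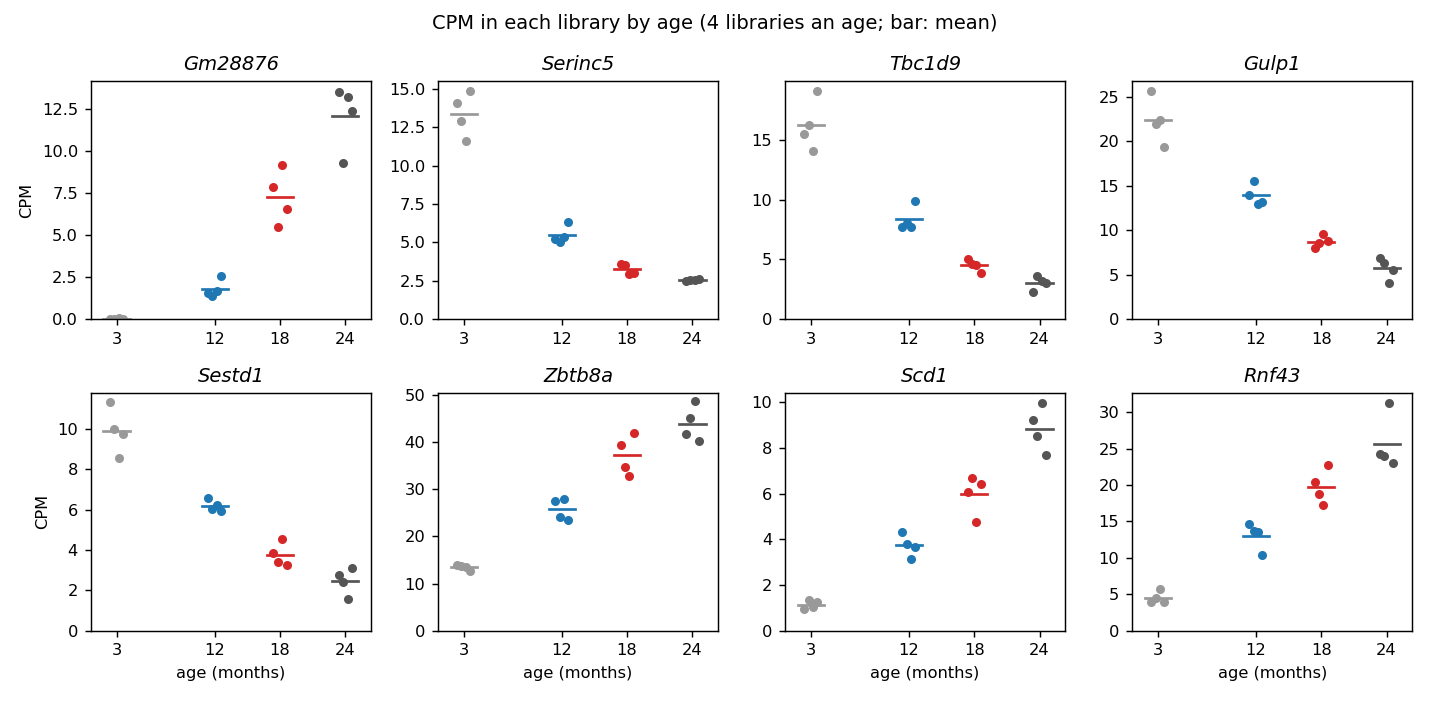
CPM (vertical axes, from 0) of 8 genes in each of the 16 libraries by age in months (horizontal axes), with each age's mean as a bar; 12 months is blue and 18 months red. In all 8 genes the blue and red points do not overlap, and the 18-month mean lies between the means at 12 and 24 months.

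Promoter windows of Serinc5 and Gulp1 are printed because these genes lie among the 4 protein-coding genes with the smallest p and differ in the motifs searched (RefSeq, GRCm38.p6). Letters searched on both strands were TAATCC, bound by Crx and related homeodomain proteins, TGCTGA as above, and TATAAA. The window of Serinc5 (chr13:92610888-92611187, plus strand) holds none of these. The window of Gulp1 (chr1:44551421-44551720, plus strand) holds TGCTGA and TAATCC, each on the reverse strand and in capitals.
Serinc5: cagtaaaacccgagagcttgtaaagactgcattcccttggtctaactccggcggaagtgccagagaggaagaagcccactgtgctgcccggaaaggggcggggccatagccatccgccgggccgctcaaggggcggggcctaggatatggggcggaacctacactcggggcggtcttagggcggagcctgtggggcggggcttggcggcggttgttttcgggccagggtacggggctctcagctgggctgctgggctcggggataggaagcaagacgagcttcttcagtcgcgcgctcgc
Gulp1: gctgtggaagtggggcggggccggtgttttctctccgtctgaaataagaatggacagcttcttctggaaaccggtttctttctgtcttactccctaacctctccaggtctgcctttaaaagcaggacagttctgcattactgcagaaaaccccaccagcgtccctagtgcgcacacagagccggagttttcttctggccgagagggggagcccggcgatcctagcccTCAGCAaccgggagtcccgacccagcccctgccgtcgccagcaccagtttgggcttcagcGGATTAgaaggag

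Windows were found for 24 of the 36 genes that differed at least 2-fold between 3 and 24 months and did not overlap between 12 and 18 months in the same direction. TAATCC was in 5 of their 29 windows (17.2%), TGCTGA in 7 (24.1%) and TATAAA in 1 (3.45%). Over all 32851 windows of the same length the shares were 7.06%, 19.5% and 13.6%, and over the 10708 windows of tested genes 6.11%, 15.2% and 7.37%. Some genes have more than 1 window, and a match of letters is a description, not a binding site.

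Genes that change over the whole span from 3 to 24 months mostly pointed the same way between 12 and 18 months. At 24 against 3 months 2.65% of the tested genes were called higher and 1.6% lower. The 2 comparisons share no library, but both came from the 1 fit over all 16 libraries, with a shared estimate of spread for each gene. Genes with little spread at 12 and 18 months were thus favoured in both. The p-values and overlaps below are therefore not independent of the calls. Of the 518 genes called at 24 against 3 months, 421 (81.3%) had the same sign at 18 against 12 months, beside 55.8% of all tested genes. The share was 82.7% in the 323 genes called higher (267 genes, median log2 fold change 0.109) and 79.0% in the 195 called lower (154 genes, median -0.131). Among genes that had changed at least 2-fold by 24 months, 100 of 105 higher genes and all 41 lower genes had the same sign, with medians of 0.265 and -0.396. Of the 518 genes, 83 (16%) had an unadjusted p under 0.05 in the same direction and none in the opposite direction, whereas among the 11659 genes not called at 24 months these numbers were 99 and 89. The 4 libraries of each age did not overlap in 38 of the 323 higher genes (11.8%, all 18-month libraries above) and 26 of the 195 lower genes (13.3%, all below), against 0.895% and 0.698% of all tested genes.

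**Figure D2:**
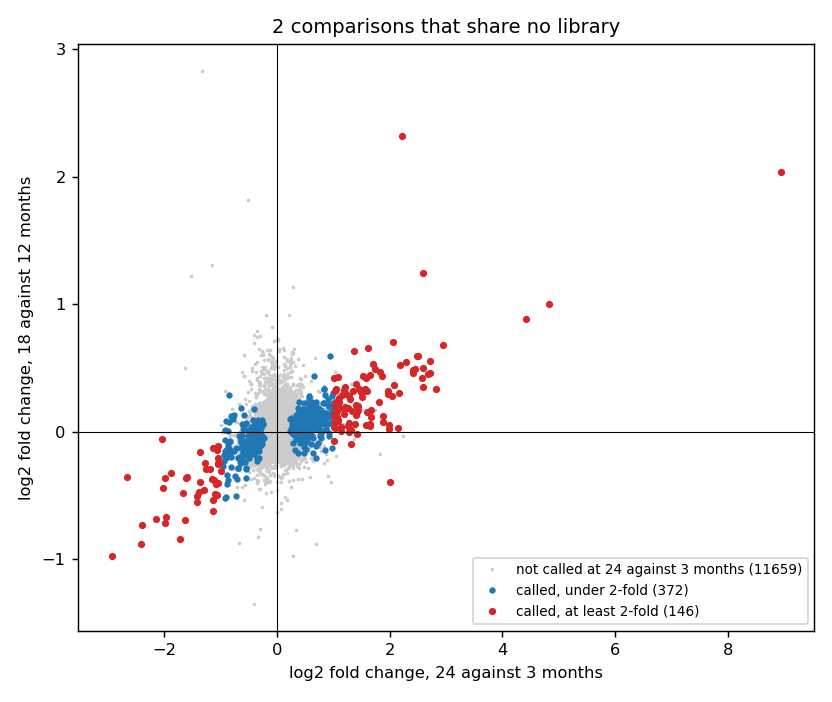
Log2 fold change at 24 against 3 months (horizontal axis) and at 18 against 12 months (vertical axis) of the 12177 tested genes, with the 146 genes called at 24 months and changed at least 2-fold in red, other called genes in blue and the rest in grey. Of the red points 141 lie in the upper right or lower left sector.

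In the genes changed at least 2-fold by 24 months the median change was largest from 3 to 12 months, the longest of the intervals. In the 105 higher genes the median log2 fold change was 0.965 from 3 to 12 months, 0.265 from 12 to 18 and 0.26 from 18 to 24 months. In the 41 lower genes it was -0.786, -0.396 and -0.109. Adjoining intervals share the libraries of 1 age, so these values are not independent of each other. The genes were also picked by the libraries of 3 and 24 months, which enter the first and last interval but not the middle one. The sizes of the intervals are therefore not directly comparable. The share of genes with the same sign depended on the libraries: without library 4 of 12 months it was 366 of 516 called genes (70.9%) beside 45.6% of all genes, and without all 3 libraries that stand apart it was 334 of 508 (65.7%) beside 43.5%. For genes changed at least 2-fold it was 111 of 140 (79.3%) without the 3 libraries.

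Of 7 further genes called higher at 24 months, 3 did not overlap between 12 and 18 months. Ly75, an endocytic receptor of dendritic cells, was at 17.9 to 28.7 CPM at 12 months and at 30.5 to 37.5 CPM at 18 months (log2 fold change 0.45, SE 0.14). Nod2, a sensor of bacterial muramyl peptides, was at 8.36 to 12.5 CPM and then at 12.8 to 16.4 CPM (0.46, SE 0.18). Elk3, a transcription factor of the ETS family, was at 4.17 to 5.33 CPM and then at 6.41 to 7 CPM (0.49, SE 0.17). None of the 3 passed the test at this interval.

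Others overlapped. Hspa2, a chaperone of the Hsp70 family, was at 17.2, 12.8, 13.4 and 25.1 CPM at 12 months and at 26.3, 31.5, 18.5 and 24.2 CPM at 18 months (log2 fold change 0.55, SE 0.19). Calcr, the calcitonin receptor, was at 5.77, 7.85, 10.2 and 3.08 CPM and then at 14, 9.16, 17.6 and 9.17 CPM (0.89, SE 0.34). Csrp3, a muscle LIM protein, was at 15.1 to 18.3 CPM and then at 16 to 24.9 CPM (0.33, SE 0.13). In Hspa2 the overlap came from library 4 at 12 months, in Calcr from library 3 at 12 months and in Csrp3 from library 3 at 18 months. Col4a3, a chain of basement membrane collagen, was at 148, 141, 178 and 60.9 CPM and then at 179, 163, 208 and 176 CPM (0.46, SE 0.28), with library 4 at 12 months far below the rest. Without that library the log2 fold change of Col4a3 was 0.22.

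Among long-term falling genes, Prdm1, a repressor that keeps photoreceptor precursors from the bipolar cell fate, was at 13.6, 12.9, 12.4 and 10.6 CPM at 12 months and at 9.67, 9.95, 8.13 and 8.74 CPM at 18 months. The ages did not overlap (log2 fold change -0.44, SE 0.15, edgeR adjusted p 1). Decr1, a reductase that mitochondria need to oxidise unsaturated fatty acids, was at 3.75, 3.15, 3.84 and 5.92 CPM and then at 1.88, 2.08, 3.17 and 2.09 CPM (-0.85, SE 0.20). Only library 3 at 18 months overlapped the younger group in Decr1. Htra1, a secreted serine protease, and Atp8b2, a phospholipid flippase, had large values at 12 months in 1 library: Htra1 was at 21.2 CPM in library 4 and at 8.68 to 9.87 CPM in the other 3, and Atp8b2 at 10 CPM in library 4 and at 2.75 to 4.49 CPM in the others. At 18 months Htra1 was at 5.88 to 9.26 CPM and Atp8b2 at 1.95 to 3 CPM, and both overlapped the younger group. Without that library the log2 fold change was -0.30 for Htra1 and -0.47 for Atp8b2, against -0.69 and -0.97 with it.

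Of the called genes 97 had the opposite sign, with log2 fold changes between -0.39 and 0.29. The 4 protein-coding genes with the smallest p among them were D2hgdh, a mitochondrial dehydrogenase of 2-hydroxyglutarate (log2 fold change -0.15, SE 0.07), Slc26a8, an anion transporter (-0.16, SE 0.09), Wdr31 (0.18, SE 0.11) and Set, a histone chaperone (0.09, SE 0.06). D2hgdh was at 18.7 to 20.4 CPM at 12 months and 17.1 to 18.5 CPM at 18 months, without overlap. Its means at 3 and 24 months were 17.4 and 21.7 CPM.

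No gene that defines rods passed the test. Of 26 phototransduction genes none was called by edgeR, none had an unadjusted p under 0.05, 11 were above 0 and 15 below, and the median log2 fold change was -0.019, beside 0.007 for all tested genes. Gnat1, the alpha subunit of rod transducin, was at 3675, 3985, 3886 and 5488 CPM at 12 months and at 4006, 4126, 3285 and 3906 CPM at 18 months (-0.15, SE 0.16). Nrl was at 587, 539, 560 and 816 CPM and then at 645, 610, 485 and 582 CPM (-0.11, SE 0.14), and the homeobox factor Crx at 1315 to 1701 CPM and then at 1262 to 1516 CPM (-0.02, SE 0.10). In all 3 genes library 4 was the highest at 12 months and library 3 the lowest at 18 months, and without library 4 Nrl stood at 0.05 and Crx at 0.06. The 18 photoreceptor transcription factors had a median of -0.010, with Prdm1 alone past an unadjusted p of 0.05, and the 29 ribbon synapse genes a median of 0.002.

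The antigen presentation list holds class I and class II genes and their processing machinery. Of 13 tested members 11 had a log2 fold change above 0, beside 53.5% of all tested genes, with a median of 0.146. An unadjusted p under 0.05 was reached by 2, both higher, beside 1.52% of all tested genes. None passed the adjusted test in edgeR. This list was assembled with earlier results of these libraries known and is not independent evidence. Tap2 was at 4.89, 5.21, 4.43 and 4.58 CPM at 12 months and at 7.35, 6.19, 7.08 and 5.80 CPM at 18 months, without overlap. H2-K1, a classical class I heavy chain, was at 4, 3.27, 4.10 and 6.72 CPM and then at 6.75, 6.93, 5.17 and 6.60 CPM, where library 4 at 12 months overlapped the older group (log2 fold change 0.50, SE 0.24). H2-Q4 (0.43, SE 0.13) and H2-Q7 (0.31, SE 0.16), nonclassical class I genes, overlapped too. The H2 genes are close copies of each other, and how reads were divided among them is uncertain. The list's median stayed between 0.064 and 0.225 in the 30 alternatives run. Of 19 microglia and macrophage markers 3 passed the filter; the 19 summed to 36.5 to 43.7 CPM at 12 months and 39.8 to 49.6 CPM at 18 months, and their part in these values was not tested.

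Immediate early genes, which respond within minutes to stimulation or handling, had the highest list median, 0.233, with 13 of 14 above 0, beside 53.5% of all tested genes, and none past an unadjusted p of 0.05. Fos, the AP-1 subunit, was at 100, 54.8, 38.8 and 169 CPM at 12 months and at 155, 241, 100 and 112 CPM at 18 months (log2 fold change 0.75, SE 0.44). It was 1.24 without library 4 of 12 months and 0.43 without library 2 of 18 months. Egr1 (0.58, SE 0.35), Junb (0.42, SE 0.23) and Atf3 (0.28, SE 0.17) showed the same wide spread. In all 4 genes the lowest value at 12 months was in library 3 and the highest in library 4. The list median was 0.456 without library 4 of 12 months and 0.555 without the 3 libraries that stand apart.

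Gene groups of protein synthesis and respiration had small medians whose sign turned with the libraries. Of 80 cytosolic ribosomal protein genes 63 were below 0, beside 46.5% of all tested genes, with a median of -0.081, and no member had an unadjusted p under 0.05. Without library 4 of 12 months the median was 0.146, and without all 3 libraries 0.254. The symbol stems with the lowest medians among 77 stems of at least 15 genes were Rpl (-0.077), Rps (-0.067), Cox (-0.056), Abhd (-0.042) and Vps (-0.035). Nuclear genes of respiratory complex I (median -0.032, 35 genes) and of complexes III to V (-0.056, 37 genes) went to 0.214 and 0.178 without the 3 libraries. The 13 messenger RNA genes of the mitochondrial genome had the lowest median of all lists, -0.207, with 12 below 0 and none past an unadjusted p of 0.05, and it was -0.533 without the 3 libraries but 0.005 with the slope on transcript length as a covariate. Antioxidant genes had a median of -0.054, with 19 of 23 below 0, and 0.146 without the 3 libraries. Cat, which encodes catalase, was at 5.29 to 7.81 CPM at 12 months and 4.67 to 5.87 CPM at 18 months (log2 fold change -0.28, SE 0.14), and its log2 fold change was -0.17 without library 4 of 12 months.

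Cytoskeletal genes had a median of 0.040 with 24 of 33 above 0, beside 53.5% of all tested genes. The median was 0.180 without library 4 of 12 months, 0.138 without library 3 of 18 months and 0.281 without the 3 libraries. Nefm, the medium neurofilament chain, was at 5.25, 5.21, 4.47 and 5.32 CPM at 12 months and at 9.51, 6.63, 6.71 and 8.31 CPM at 18 months, without overlap (log2 fold change 0.62, SE 0.29, edgeR adjusted p 1). Nefm is also on the list of ganglion cell markers and lies opposite Nefl. Ganglion cell markers summed to 64.6 to 91.4 CPM at 12 months and to 67.2 to 109 CPM at 18 months, and their part in the level of Nefm was not tested. Fatty acid oxidation genes, with Decr1 the lowest, had a median of -0.018, and fatty acid and phospholipid synthesis genes, with Scd1 the highest, a median of 0.010. Their extremes were -0.85 to 0.19 and -0.12 to 0.68. Of 9 amacrine cell markers 2 were past an unadjusted p of 0.05, both higher, beside 1.52% of all tested genes. Amacrine cell markers had a median of 0.229, with 7 of 9 above 0, beside 53.5% of all tested genes. Ganglion cell markers had one of 0.167, with 4 of 5 above 0. Without library 4 of 12 months these medians were 0.355 and 0.292, without library 3 of 18 months 0.267 and 0.275. Without the 3 libraries they were 0.414 and 0.344. Summed amacrine cell markers overlapped, at 138 to 184 CPM at 12 months and 157 to 177 CPM at 18 months. Other marker lists had medians below 0, except microglia and macrophage markers (0.16). Bipolar cell markers stood at -0.084 (2 of 9 above 0), cone markers at -0.194 (4 of 9) and Muller glia markers at -0.036 (5 of 16). Without the 3 libraries these 3 were -0.106, 0.159 and 0.233.

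**Figure D3:**
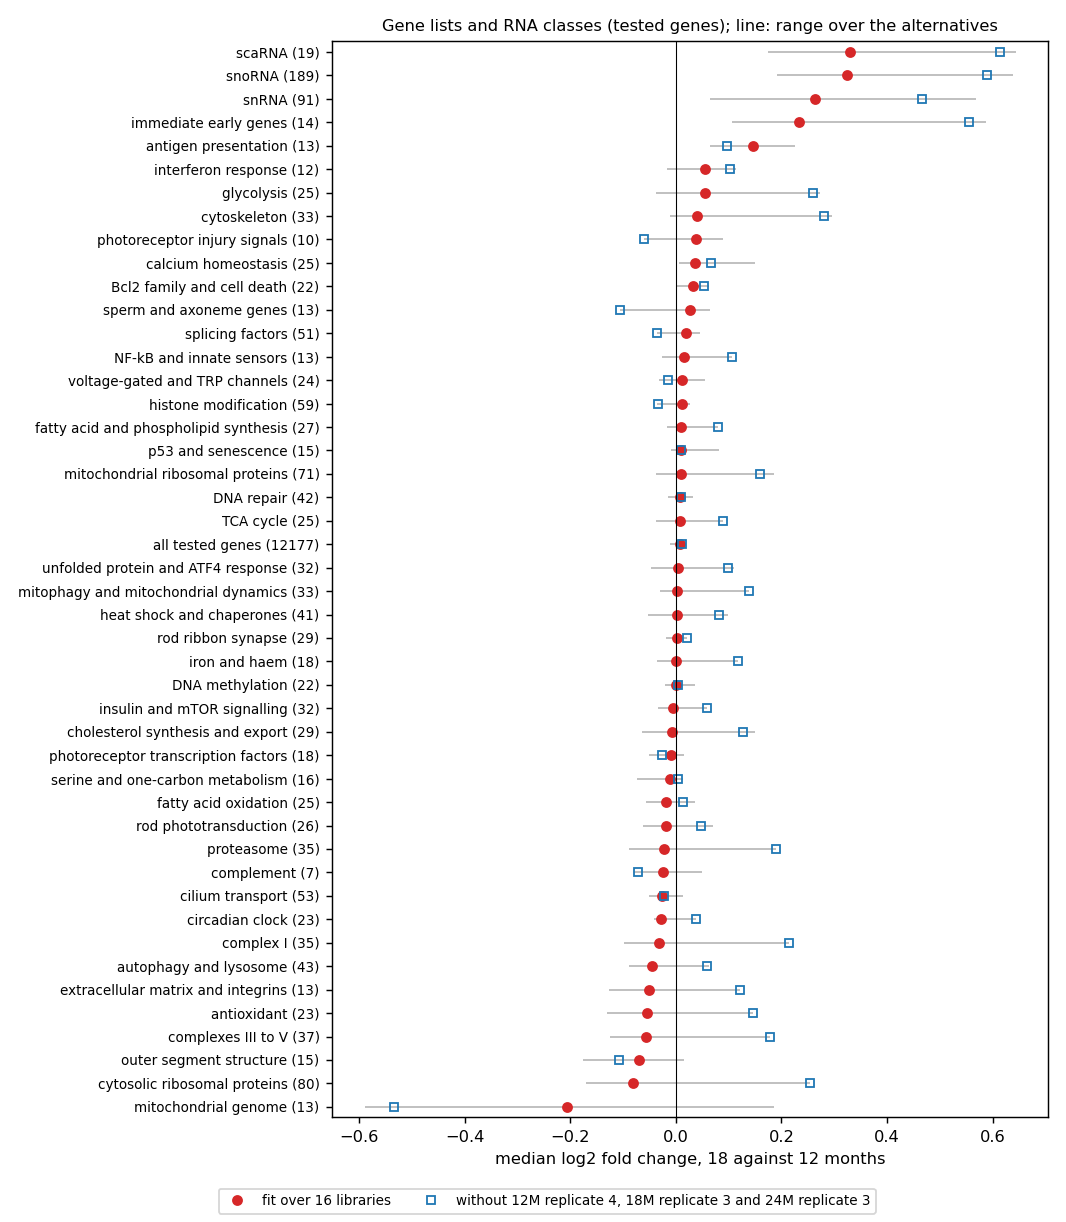
Median log2 fold change at 18 against 12 months (horizontal axis) of 42 gene lists, 3 RNA classes and all tested genes, with the number of tested genes in brackets; filled red points are the fit over 16 libraries, open blue squares the fit without 3 libraries, and grey lines the range over the alternatives. Small RNA classes and immediate early genes lie to the right in every alternative, whereas cytosolic ribosomal proteins, the proteasome, complex I and complexes III to V change sign between the red points and the blue squares.

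Among the RNA classes, small nucleolar RNAs (snoRNAs) had mostly positive differences. They are short RNAs, most of them cut from introns, that guide the chemical modification of ribosomal RNA. Of 189 tested snoRNAs 187 had a log2 fold change above 0, beside 53.5% of all tested genes, and the median was 0.325. None passed the adjusted test in edgeR. An unadjusted p under 0.05 was reached by 51, all higher, beside 1.52% of all tested genes. Without overlap between the ages were 5, all above, beside 0.895%. Small nuclear RNAs (median 0.263, 89 of 91 above 0) and small Cajal body RNAs (0.329, 18 of 19 above 0) lay on the same side. By symbol the highest stems were Snord (0.363), Snora (0.243), n-R, which are 5S ribosomal RNA copies (0.174), Gm (0.045) and Eif (0.036).

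All 5 snoRNAs without overlap belonged to the box C/D type, which carries box C near its start and box D near its end. Of the 189, 80 held TGATG in the first 20 bases and CTGA in the last 20, on the transcribed strand, and all 80 were above 0 with a median of 0.39, beside a median of 0.30 in the other 109. Those shown lie in introns of Snhg1 and Rpl21 and represent the type (GENCODE M21, GRCm38: Gm25855 at chr19:8723993-8724064, plus strand; Gm25091 at chr5:146834834-146834904, plus strand). Capitals mark box C and box D.
Gm25855: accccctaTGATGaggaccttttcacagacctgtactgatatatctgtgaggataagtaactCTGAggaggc
Gm25091: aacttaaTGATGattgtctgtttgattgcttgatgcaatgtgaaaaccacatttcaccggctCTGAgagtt

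Gm22980 was at 21.5, 20.7, 17.0 and 21.8 CPM at 12 months and at 38.1, 37.6, 25.1 and 30.7 CPM at 18 months (log2 fold change 0.70, SE 0.15, edgeR adjusted p 0.48). Gm25855 was at 42.4, 39.5, 30.0 and 41.3 CPM and then at 67.8, 67.4, 44.8 and 55.4 CPM (0.62, SE 0.15), and Gm25091 at 28.8, 27.8, 21.0 and 28.8 CPM and then at 42.0, 34.1, 30.2 and 30.8 CPM (0.37, SE 0.13). In each of them library 3 was the lowest at both ages. The other 2 were Snord58b (0.64, SE 0.15) and Gm26109, in the gene of the mitochondrial chaperone Hspa9 (0.75, SE 0.16). The snoRNAs did not follow their host genes: 173 lay within 117 tested host genes, whose median was 0.00 with 59 above and 58 below 0, and in 167 of 174 pairs the snoRNA had the higher log2 fold change.

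The difference in snoRNAs was not part of a steady course. Their median was -0.35 from 3 to 12 months, 0.33 from 12 to 18 and -0.04 from 18 to 24 months, so that 12 months was the low point. These intervals share libraries. Their summed level moved with library measures inside each age. It was 16626, 15269, 12485 and 21441 CPM at 12 months and 24932, 26489, 14227 and 20302 CPM at 18 months, so library 4 of 12 months lay with the older group and library 3 of 18 months with the younger. The slope of log2 CPM on log2 transcript length was 0.0272, 0.0378, 0.0748 and -0.0473 in the libraries of 12 months and -0.0292, -0.0436, 0.0839 and 0.000528 in those of 18 months, and the 4 libraries with the most snoRNA had the 4 lowest slopes. With that slope as a covariate the snoRNA median was 0.192, and without the 3 libraries 0.590. The slope on GC content, per 10 percentage points, was -0.195, -0.197, -0.227 and 0.371 at 12 months and -0.0232, -0.0256, -0.294 and 0.0307 at 18 months. Once library 4 of 12 months and library 3 of 18 months are left out, the ages do not overlap in either slope, so the age and these library measures cannot be told apart in the remaining 6.

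**Figure D4:**
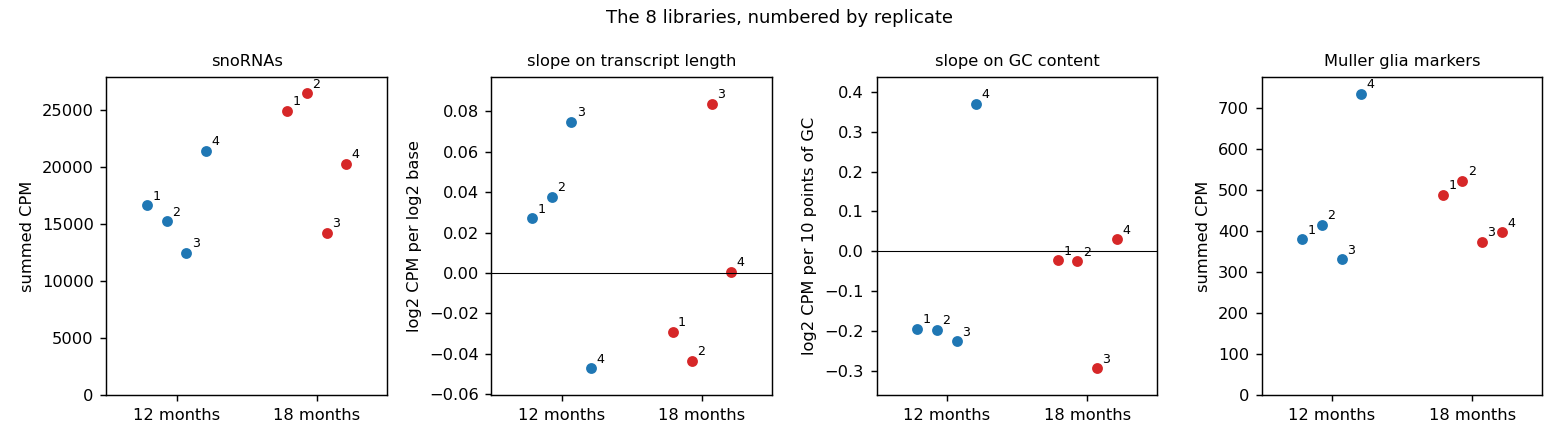
The 8 libraries, numbered by replicate, at 12 months (blue) and 18 months (red): summed snoRNA CPM, slope of log2 CPM on log2 transcript length, slope on GC content per 10 percentage points, and summed CPM of Muller glia markers. Library 4 of 12 months and library 3 of 18 months lie apart from their own age in the first 3 panels, and in the last library 4 of 12 months stands at 734 CPM.

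Of the 85 genes whose 18-month libraries were all below those at 12 months 82 were protein-coding, beside 10286 of all 12177 tested genes. Of the 109 genes with all 18-month libraries above, 81 were protein-coding. The 3 other lower genes were Gm42936 (log2 fold change -0.40, SE 0.15), Zfp335os, antisense to a zinc finger gene (-0.24, SE 0.10), and the pseudogene Gm28661 (-0.98, SE 0.46). Gm28661 was at 124, 166, 120 and 129 CPM at 12 months and at 91.3, 59.3, 85.0 and 37.5 CPM at 18 months. Long intergenic noncoding RNAs had a median of 0.020, with 265 of 460 above 0 (57.6%). Antisense RNAs had a median of 0.015, with 245 of 434 above 0 (56.5%). Both shares were near the 53.5% of all tested genes. Above without overlap were 10 long intergenic noncoding RNAs and 7 antisense RNAs, beside 0.895% of all tested genes. No long intergenic noncoding RNA and 1 antisense RNA lay below without overlap, beside 0.698% of all tested genes.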

How the data were processed

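RNA of sorted mouse rods was sequenced as stranded total RNA. Per the submitters' processing notes, GRCm38.p4, limma 3.32.2, edgeR 3.13.9 and kallisto 0.42.5 were used, with no role or order given. The authors deposited estimated counts of 113468 transcripts per library. These were matched by identifier to GENCODE M21 (111896 matched, with 0.73 to 1.08% of each library's counts unmatched), summed to 45038 genes and rounded, since 85.4% of nonzero values were not whole. The 12177 genes that reached 5 CPM in 4 or more libraries were fitted over all 16 libraries with age as a factor, in edgeR 4.0.16 (R 4.3.3), by TMM scaling and the quasi-likelihood test with Benjamini-Hochberg adjustment; the biological coefficient of variation was 0.169. Printed CPM are scaled by TMM. Alternatives used limma 3.58.1 and DESeq2 1.42.0. The procedure was tested on simulated counts. The authors' deposited CPM signal tables served for names and 1 alternative, and log2 differences from 3 months were copied from the authors' deposited table, whose F score and p-values were not used as evidence. Members and gene lists were chosen with earlier results of these data known. Named genes were the called genes and then those without overlap by smallest p (12 protein-coding and 4 noncoding in each direction), genes called at 24 against 3 months by smallest p, up to 4 members of each list described, and a fixed list of genes. No 2 of the 8 libraries agreed within sampling noise (lowest chi-square per degree of freedom 9). Counting noise is small for genes with many counts. It is not for those with few, such as Gm28876 at 33 to 51 counts a library at 12 months. The 4 libraries an age also limit the precision. Some genes that the rule named are not reported here.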

Additional observations from a re-analysis of the deposited data

Results flagged for a closer look

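In groups of 4 libraries, the highest or lowest was set against the rest by Dixon's ratio, over 156 groups. The 95% critical value was exceeded in 13; chance flags about 1 in 20 groups. Library 4 of 12 months was the one that stood apart in 8 of these. It was high for Wwtr1 (11.1 CPM against 8.83 to 9.04 in the other 3, ratio 0.907), Kirrel (60.5 against 51.5 to 52.6, 0.878), Mylk (67.7 against 44.7 to 48.3, 0.843) and Htra1 (21.2 against 8.68 to 9.87, 0.905). In Gnat1 the same library equalled the critical value at the 3 decimals compared, and it is not counted. It was also high for summed rod markers (26400 CPM against 23200 to 23400, 0.929), summed endothelial and pericyte markers (609 against 393 to 405, 0.944) and the GC slope (0.371 against -0.227 to -0.195, 0.947), and low for D2hgdh (18.7 CPM against 20.2 to 20.4, 0.882). Library 3 of 18 months was high for Six4 (12.8 CPM against 11.3 to 11.5, 0.867), Decr1 (3.17 against 1.88 to 2.09, 0.837) and summed bipolar cell markers (308 against 282 to 286, 0.846). Library 3 of 12 months was low for Gm25091 (21.0 CPM against 27.8 to 28.8, 0.872) and Nefm (4.47 against 5.21 to 5.32, 0.871).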

How the results depend on the processing

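The number of calls varied widely between the alternatives. Many of the genes followed here were picked by this same contrast, so their steady sign is no separate support for direction. List medians changed sign in 17 of 30 alternatives for DNA methylation and in 7 for cytosolic ribosomal proteins. The count of genes called higher (1) and lower (0) by edgeR became 8 and 4 in DESeq2, 10 and 8 with the GC slope as a covariate, 15 and 6 with the length slope, 1513 and 827 in voom with sample quality weights, 183 and 50 in limma on the authors' normalized CPM plus 0.5 and 200 and 61 plus 2, 171 and 52 without the 3 libraries that stand apart, and 0 and 0 in those 13 libraries with the GC slope (chosen after seeing the data) or in the 8 libraries alone. In those last 2 Gm28876 had an adjusted p of 0.053 and 0.12 (edgeR). Leaving out each library gave 1 higher gene and 0 to 1 lower genes, the exception being Tbc1d9 without library 1 of 24 months. Deviations of same-numbered libraries from their age means correlated at -0.208, -0.382, 0.726 and 0.478, in the order of the replicate numbers. Across numbers, library 2 of 12 months and library 3 of 18 months correlated at 0.638. These values do not settle whether the numbers pair the libraries. With the replicate block 1 gene was called higher and 0 lower. Genes without overlap numbered 109 above and 85 below. They numbered 2514 and 2597 without the 3 libraries, and 2173 and 2310 in the authors' table. With no filter they numbered 258 and 219, and at a minimum of 1 CPM 150 lay below. With 1 library left out there were 108 to 547 above and 84 to 469 below, the most without library 4 of 12 months. Sets of 3 libraries against 4 or 3 overlap less often by construction. How much of the larger counts comes from set size was not tested, so they are not ascribed to it. Genes called at 24 months with the same sign numbered 421 of 518, 366 of 516 to 430 of 518 with 1 library left out, and 325 of 506 to 427 of 518 in the other alternatives. Values of 4 genes changed sign. Wdr31 was -0.04 in the 13 libraries with the GC slope and -0.02 with quality weights. Under the authors' CPM with 0.5 and with 2, the 13 libraries, the 13 with the GC slope and quality weights, Nrl was 0.12, 0.12, 0.12, 0.03 and 0.13 and Crx 0.11, 0.11, 0.12, 0.07 and 0.09. Gnat1 was 0.08, 0.08, 0.06 and 0.02 in the same without the GC slope fit. With 1 library left out the changed signs were 0.05 for Nrl and 0.03 to 0.06 for Crx, whose fold changes with 1 library left out ran from -0.2 to 0.05 and from -0.07 to 0.06. The cause of these changes was not tested.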
